A study of Arabidopsis thaliana with 9 samples.

Results

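These 68 genes stood higher than in wild type both in callus that lacked PNET1 and in callus that made far too much of it. They were chosen by their own values. Counts were scaled to CPM, the count per 1000000 counts of its library, PNET1 itself (AT1G07970) was set aside, and a gene had to average at least 2 CPM in one of the lines. All 6 libraries of the 2 lines had to lie above all 3 wild-type libraries, and log2(mean CPM + 0.5) had to exceed wild type by at least 0.3 in each line. Of 32833 genes in the table, 17725 passed the CPM floor, 442 of these (2.49%) had all 6 line libraries above all 3 wild-type libraries, and 68 (0.384%) met every criterion. The mirrored rule, for genes lower in both lines, found 32, and 35 to 64 when 1 library was left out, with 64 without WT replicate 2, 63 without WT replicate 1 and 53 without OEP1 replicate 2.

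The samples were 9 RNA-seq libraries of Arabidopsis thaliana callus, 3 of each genotype, all in the Col-0 ecotype and without further treatment. OEP1 is a line that overexpresses PNET1, pnet1 is a knockout of the gene, and WT is wild type. Hypocotyl explants of seedlings raised in the dark spent 4 days on callus induction medium and 10 days on shoot induction medium. The labels name 1 line for each altered genotype, and neither the allele nor the promoter driving the transgene is stated in them.

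PNET1 sits in the membrane of the nucleus. Callus is a mass of dividing cells that hormone medium draws out of plant explants, and a medium rich in cytokinin turns part of it towards shoots. Ethylene, abscisic acid, auxin and cytokinin all act in this tissue. Several of the genes described here encode receptors, repressors and degradation factors of these pathways.

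PNET1 had 4621, 4884 and 5241 CPM in OEP1, 1.56, 1.12 and 1.38 CPM in pnet1, and 32.3, 31 and 28.7 CPM in WT, in the direction that each label gives. Library totals ran from 16890848 to 19493969 counts, so that 2 CPM stood for 33.8 to 39 counts. Ribosomal RNA genes took 0.0444% to 0.0757% of counts in OEP1, 0.0437% to 0.102% in pnet1 and 0.139% to 0.190% in WT, lower in both lines without overlap. Of 8 marker lists of cell types, the root list alone had a summed CPM above WT in both lines. The root list (23 genes, 9 at the CPM floor, 1 without a count) summed to 139 to 142 in OEP1, 147 to 148 in pnet1 and 131 to 137 in WT, although no single gene of it separated the libraries in that way. Its 12 tested genes had a median log2 fold change over WT of 0.23 in OEP1 and -0.13 in pnet1. Of its defining genes, SCR averaged 22.5 ± 2.41 CPM in OEP1, 8.12 ± 0.995 CPM in pnet1 and 15.7 ± 1.91 CPM in WT and SHR averaged 43.9 ± 3.6 CPM in OEP1, 81.1 ± 2.1 CPM in pnet1 and 52.1 ± 4.32 CPM in WT, here and below as mean ± SD of 3 libraries, so neither was above WT in both lines. The shoot meristem and boundary list (28 genes, 19 at the floor) summed to 311 to 327 CPM in OEP1, 274 to 301 in pnet1 and 272 to 288 in WT. OEP1 lay above WT there, and pnet1 overlapped it. The 26 tested genes of that list had a median log2 fold change over WT of 0.27 in OEP1 and -0.06 in pnet1. Other lists differed between the lines. The phloem list, to which PP2A1 belongs, summed to 1220 to 1432 CPM in OEP1, 2073 to 2189 in pnet1 and 1320 to 1535 in WT, and the callus list to 1429 to 1604 in OEP1, 1891 to 2022 in pnet1 and 1509 to 1652 in WT. The photosynthesis list summed to 13517 to 18440 CPM in OEP1, 5797 to 6005 in pnet1 and 10365 to 13137 in WT, and the epidermis list to 3685 to 4534 in OEP1, 1659 to 1843 in pnet1 and 3089 to 3634 in WT. The endodermis list summed to 243 to 299 CPM in OEP1, 160 to 176 in pnet1 and 234 to 277 in WT, and the xylem list overlapped between all groups. The part of these shifts in the results below, the comparison of the lines included, was not tested, and in bulk tissue more cells of a type and more RNA per cell cannot be told apart. WOX11, a callus regulator, averaged 67.3 ± 8.24 CPM in OEP1, 146 ± 12.6 CPM in pnet1 and 84.6 ± 4.14 CPM in WT, and the meristem genes STM and CUC2 were also present.

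Most of the 68 genes were weakly expressed and moved little. Their median level in WT was 4.70 CPM, against 23.2 CPM over all genes at the floor, and 41 stayed under 10 CPM on average in both lines. The median log2 difference from WT was 0.43 in OEP1 (0.30 to 1.07) and 0.51 in pnet1 (0.31 to 1.32). A difference of 1 or more, a doubling, was reached by 1 gene in OEP1 and by 4 in pnet1. OEP1 had the smaller difference for 45 genes and pnet1 for 23.

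The gap between the libraries was narrow. The lowest line library exceeded the highest WT library by a median ratio of 1.11 (1.001 to 1.61), and only 11 genes had a ratio of at least 1.2, led by ORS1, AT1G63820, AT4G38290 and CLV3. WT replicate 1 was the highest WT library for 36 genes. Without it the rule would have found 161 genes. Leaving out OEP1 replicate 2 gave 105 and leaving out WT replicate 3 gave 115. Of the 68, 31 were found again whichever single library was left out. Nearest to the threshold of 0.3, AT3G60510, AT4G28380 and UBC29 were just inside, the smaller of their differences being 0.303, 0.309 and 0.310 (log2). AT1G10580, AT3G07273 and AT3G47110 were just outside, at 0.29997, 0.2996 and 0.2988.

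**Figure D1:**
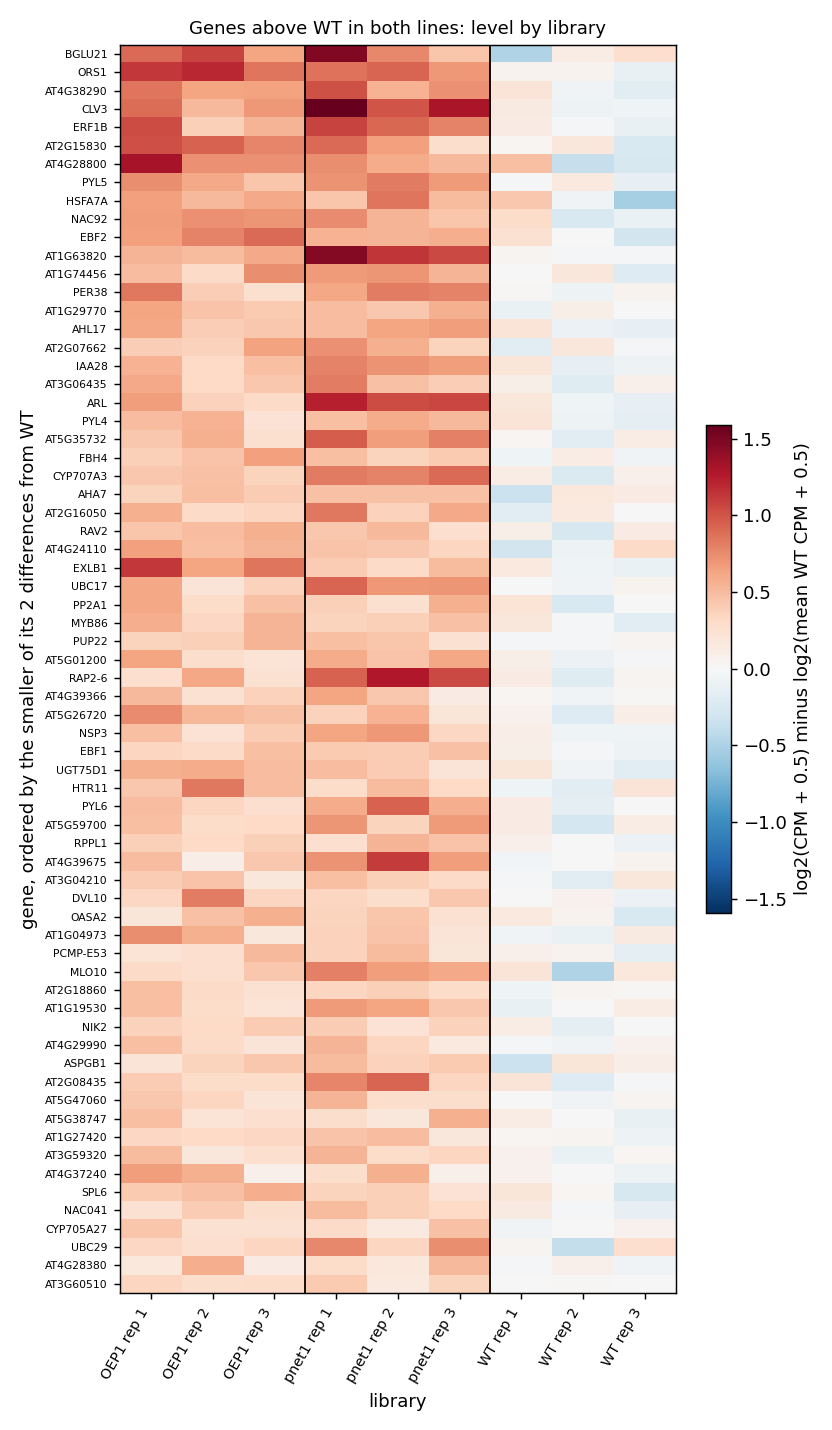
Level of each of the 68 genes in each library, as log2(CPM + 0.5) minus log2(mean WT CPM + 0.5). Rows run down by the smaller of the 2 differences from WT, and columns hold the OEP1, pnet1 and WT libraries. The rows at the top reach 0.5 or more in both lines, and those at the bottom lie near 0.3.

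The 68 genes included 64 that code for protein, 2 small nucleolar RNAs (AT1G74456 and AT4G39366) and 2 long noncoding RNAs. They lay on all 5 chromosomes, with 11, 14, 12, 16 and 15 genes on chromosomes 1 to 5, and no pair of them were neighbours. Their median length was 1368.5 bases, against 1824 bases over the genes at the floor. Of the genes on the 40 lists of pathways and cell types, 894 passed the floor and 12 were among the 68, spread over 10 lists. The ethylene list was the one with more than 1, with 3 of its 19 genes at the floor. Of all 17725 genes at the floor, 0.384% were among the 68, and no list was tested against this share. ERF1B and NAC92, described below beside the ethylene genes, come from the jasmonate and senescence lists.

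Ethylene inactivates receptors that otherwise hold the pathway off, which frees EIN3 and EIL1, the transcription factors at its end. EBF1 and EBF2 are the F-box proteins that mark EIN3 and EIL1 for degradation, and both genes were among the 68. EBF1 had 259, 253 and 285 CPM in OEP1, 273, 271 and 284 CPM in pnet1, and 219, 201 and 195 CPM in WT. Both lines were apart from WT, as the rule required, while OEP1 and pnet1 overlapped. The differences from WT were log2 0.37 in OEP1 and 0.43 in pnet1. EBF2 had 124, 136 and 147 CPM in OEP1, 115, 114 and 118 CPM in pnet1, and 92.8, 78.4 and 64.2 CPM in WT. Every line library was above every WT library by at least 1.23 times, with log2 0.79 in OEP1 and 0.56 in pnet1. OEP1 and pnet1 did not overlap for EBF2, OEP1 being higher. Per length EBF1 was the most abundant of the 68 genes, at 86.7 ± 5.69 FPKM in OEP1, 89.7 ± 2.29 FPKM in pnet1 and 67.3 ± 4.41 FPKM in WT.

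ERF1B, a GCC-box binding factor that EIN3 switches on and that also answers to jasmonate, had 23.7, 14.9 and 16.7 CPM in OEP1, 24.4, 21.8 and 19.9 CPM in pnet1, and 12.4, 11.1 and 10.4 CPM in WT. OEP1 replicate 1 was as high as the pnet1 libraries and OEP1 replicates 2 and 3 were lower, and the differences were log2 0.68 in OEP1 and 0.93 in pnet1. NAC92, also called ORE1, is a senescence factor that acts downstream of EIN2. NAC92 had 4.86, 5.12 and 4.99 CPM in OEP1, 5.21, 4.43 and 4.09 CPM in pnet1, and 3.64, 2.37 and 2.64 CPM in WT. Its differences of log2 0.70 in OEP1 and 0.58 in pnet1 rested on low levels, and WT replicate 1 was the nearest to the lines.

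The 250 bases before the start of EBF2 and of ERF1B are shown because EIN3 is known to act on both promoters. They were read from the TAIR10.1 genome, and capitals mark ATGTA or its complement TACAT, the core of the site that EIN3 binds. The stretch of EBF2 is chr5:8797350-8797599 on the minus strand and that of ERF1B chr3:8295367-8295616 on the plus strand.
EBF2: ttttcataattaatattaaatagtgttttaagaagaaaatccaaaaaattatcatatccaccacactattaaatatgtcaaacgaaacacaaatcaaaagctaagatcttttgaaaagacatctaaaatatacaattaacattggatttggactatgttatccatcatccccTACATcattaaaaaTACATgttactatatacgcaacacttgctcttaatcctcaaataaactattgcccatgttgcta
ERF1B: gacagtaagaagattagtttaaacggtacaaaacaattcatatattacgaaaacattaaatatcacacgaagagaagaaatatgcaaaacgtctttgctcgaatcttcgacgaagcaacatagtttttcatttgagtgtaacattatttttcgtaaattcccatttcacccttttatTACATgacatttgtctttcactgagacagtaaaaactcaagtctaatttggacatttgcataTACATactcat
Each held 2 matches and EBF1 had none. So short a word is common: counted from 250 bases before to 50 bases after the start, ATGTA on either strand was in 57.4% of the 68 promoters and in 56.2% of all promoters. This motif was added after the ethylene genes had been seen.

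ARL and ORS1 belong to the small ARGOS family, membrane proteins that promote organ growth, of which ARGOS and ARL also lower the response to ethylene. ARL had 59.3, 48.5 and 46.1 CPM in OEP1, 89, 77 and 78.6 CPM in pnet1, and 42.4, 35.8 and 33.9 CPM in WT. The pnet1 libraries were the highest and all 3 groups were apart, the differences being log2 0.45 in OEP1 and 1.12 in pnet1. ORS1 had 10.2, 10.8 and 8.35 CPM in OEP1, 8.45, 8.85 and 7.45 CPM in pnet1, and 4.62, 4.62 and 4.01 CPM in WT. ORS1 had the largest difference from WT of all 68 genes in OEP1, and the widest gap between lines and WT, with log2 1.07 in OEP1 and 0.83 in pnet1. ARGOS itself averaged 26.4 ± 7.4 CPM in OEP1, 40.0 ± 5.59 CPM in pnet1 and 16.9 ± 3.86 CPM in WT and was not among the 68, since its libraries overlapped.

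Of the 16 other genes of the ethylene list that were tested, 0 were called higher and 3 lower in OEP1 over WT by edgeR at an adjusted p under 0.05, with 4 higher and 5 lower at an unadjusted p under 0.05, and DESeq2 called 1 higher and 2 lower. In pnet1 over WT, 8 of the 16 were called higher and 1 lower by edgeR. Over all 19698 genes tested, 5.97% were called higher and 5.24% lower in OEP1 over WT, and 30% were called in pnet1 over WT, with 12.6% higher and the others lower. Both comparisons use the same WT libraries. The ACC synthase genes ACS2 and ACS8, which supply the precursor of ethylene, differed in direction: ACS2 averaged 53 ± 8.2 CPM in OEP1, 161 ± 1.46 CPM in pnet1 and 104 ± 18.8 CPM in WT, and ACS8 averaged 8.1 ± 0.866 CPM in OEP1, 31.7 ± 0.999 CPM in pnet1 and 16.8 ± 2.74 CPM in WT. The receptor genes ETR2 and ERS2 rose in pnet1 by 0.41 ± 0.05 (SE, adjusted p = 4.0e-05 by edgeR) and 0.34 ± 0.07 (SE, adjusted p = 0.000836 by edgeR) and did not pass the test in OEP1.

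**Figure D2:**
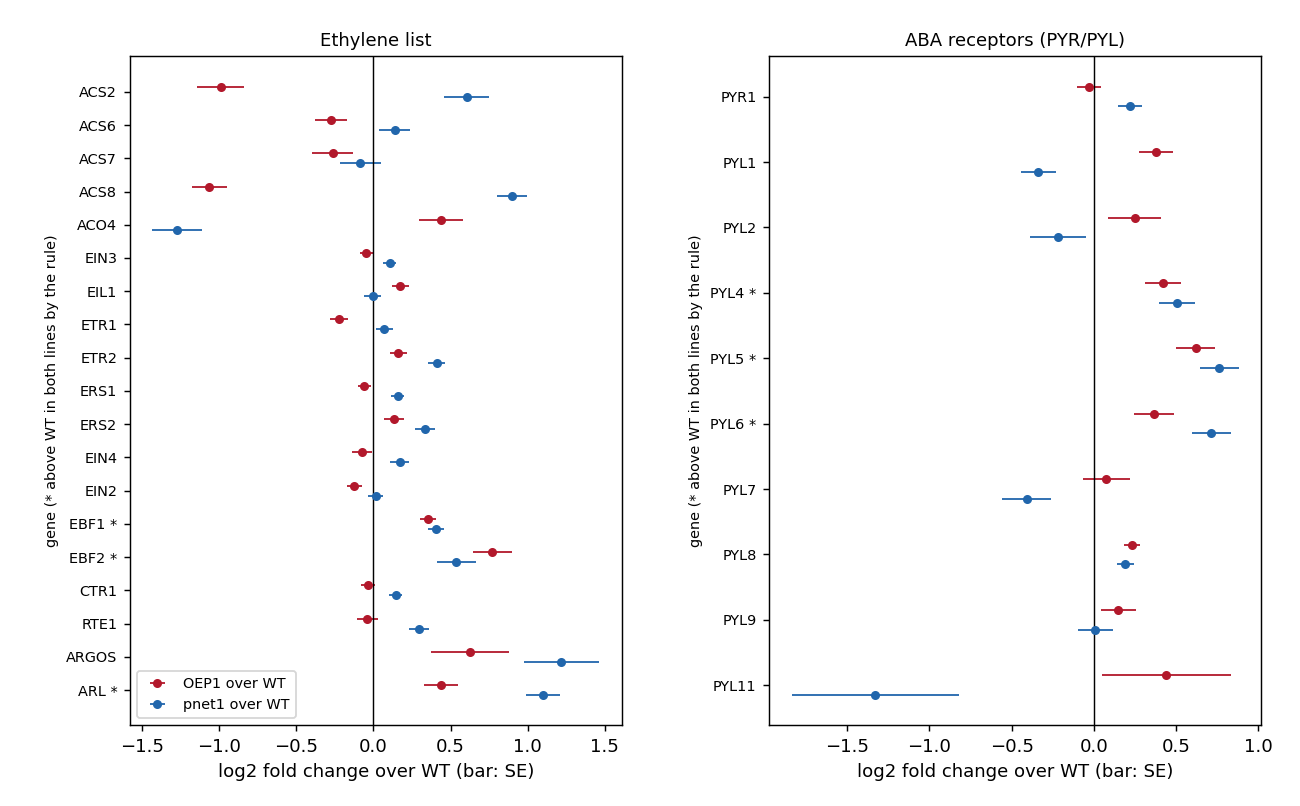
Log2 fold change over WT with its standard error for the 19 tested genes of the ethylene list and the 10 tested ABA receptor genes, in OEP1 and in pnet1. Asterisks mark genes that the rule chose, which lie right of 0 in both lines by construction. ACS2, ACS8 and ACO4 are among the ethylene genes that lie on opposite sides of 0 in the 2 lines. Of the receptor genes, PYR1, PYL1, PYL2, PYL7 and PYL11 do so.

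Abscisic acid (ABA) is sensed by the PYR/PYL proteins, which on binding it block protein phosphatases that otherwise keep the response off. PYL4, PYL5 and PYL6, which belong to the same subgroup of these receptors, were among the 68, out of 14 receptor genes and 9 at the CPM floor. Of all genes at the floor, 0.384% were among the 68. The receptor family was looked at after the genes had been seen, and its share was not tested. PYL4 had 68.2, 71 and 56.6 CPM in OEP1, 67, 72.8 and 68.9 CPM in pnet1, and 55.7, 45.5 and 43.2 CPM in WT. PYL4 differed by log2 0.44 in OEP1 and 0.53 in pnet1. PYL5 had 12.3, 11 and 9.81 CPM in OEP1, 12, 13 and 11.7 CPM in pnet1, and 6.93, 7.99 and 6.44 CPM in WT. Its 6 line libraries were at least 1.23 times the highest WT library, with log2 0.60 in OEP1 and 0.74 in pnet1. PYL6 had 13.4, 12 and 11.3 CPM in OEP1, 14.4, 18.4 and 14.2 CPM in pnet1, and 10.3, 8.41 and 9.4 CPM in WT. Here pnet1 replicate 2 was the highest, OEP1 and pnet1 did not overlap, and the differences were log2 0.37 in OEP1 and 0.71 in pnet1.

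The remaining receptor genes went several ways. PYL8 was called higher than WT in both lines with smaller fold changes, 0.23 ± 0.05 in OEP1 and 0.19 ± 0.05 in pnet1 (SE). PYL1 averaged 15.2 ± 0.347 CPM in OEP1, 9.26 ± 0.697 CPM in pnet1 and 11.5 ± 1.44 CPM in WT and was called higher in OEP1 and lower in pnet1. PYR1 was called higher in pnet1, with -0.03 ± 0.07 in OEP1 and 0.22 ± 0.07 in pnet1 (SE), and did not pass the test in OEP1. PYL7 was called lower in pnet1, with 0.08 ± 0.14 in OEP1 and -0.41 ± 0.15 in pnet1 (SE), and did not pass the test in OEP1. PYL11, below the CPM floor, averaged 0.796 ± 0.308 CPM in OEP1, 0.231 ± 0.107 CPM in pnet1 and 0.579 ± 0.0453 CPM in WT. CYP707A3, an enzyme that breaks ABA down, was the member from the ABA list. CYP707A3 had 6.2, 6.32 and 5.85 CPM in OEP1, 8.27, 8.08 and 8.72 CPM in pnet1, and 4.87, 3.73 and 4.75 CPM in WT. The 3 groups were apart in the order pnet1, OEP1, WT, with differences from WT of log2 0.42 in OEP1 and 0.84 in pnet1.

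A meristem gene and an auxin gene follow. CLV3 encodes the secreted peptide that stem cells of the shoot meristem make and that limits the stem cell regulator WUS. CLV3 had 5.58, 4.21 and 4.82 CPM in OEP1, 9.43, 6.08 and 7.62 CPM in pnet1, and 3.13, 2.6 and 2.64 CPM in WT. The groups were apart from each other, and CLV3 had the largest difference in pnet1 of all 68 genes, with log2 0.71 in OEP1 and 1.32 in pnet1. WUS averaged 0.736 ± 0.397 CPM in OEP1, 1.01 ± 0.18 CPM in pnet1 and 0.942 ± 0.395 CPM in WT, STM averaged 7.79 ± 0.468 CPM in OEP1, 6.28 ± 1.11 CPM in pnet1 and 5.81 ± 1.09 CPM in WT and CUC2 averaged 9.57 ± 0.516 CPM in OEP1, 11.7 ± 1.26 CPM in pnet1 and 9.66 ± 0.909 CPM in WT. IAA28, a repressor of auxin-responsive genes, had 24.4, 20.6 and 23.1 CPM in OEP1, 28.9, 27.3 and 26.3 CPM in pnet1, and 18.8, 15 and 15.5 CPM in WT. All 3 groups were apart, with log2 0.46 in OEP1 and 0.73 in pnet1.

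**Figure D3:**
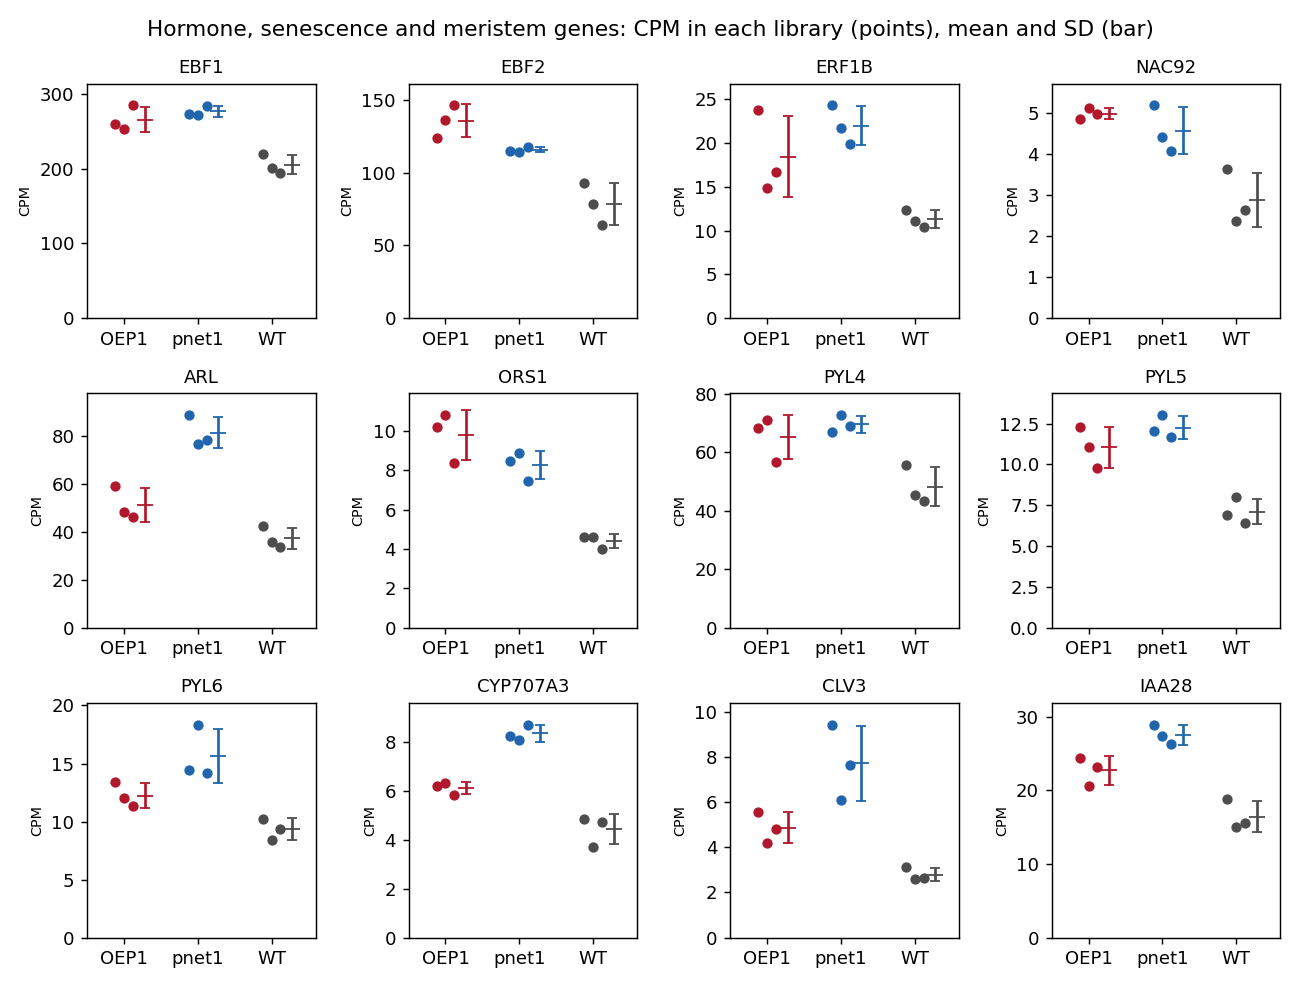
CPM of 12 genes in each library of OEP1, pnet1 and WT, with the mean and SD of each group beside its 3 points. Every axis starts at 0. All line points lie above all WT points by construction, and for ARL, CYP707A3, CLV3, IAA28 and PYL6 the pnet1 points also lie above the OEP1 points. For EBF2 the OEP1 points lie above the pnet1 points.

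Transcription factors were a further group. Of 45 chosen genes with a family entry in the deposited table, 12 were described as DNA-binding regulators. This count rests on the wording of the descriptions and may be incomplete. Regulators were not counted in the same way among the other genes, so whether their share was unusual was not tested. The regulators not yet described here were mostly low. AT4G28800, a basic helix-loop-helix protein, had 9.1, 5.92 and 5.91 CPM in OEP1, 5.96, 5.31 and 5.02 CPM in pnet1, and 4.87, 2.49 and 2.75 CPM in WT. OEP1 replicate 1 stood far above the rest and WT replicate 1 close to the lines. AT1G63820, a protein with a CCT motif, had 2.51, 2.45 and 2.66 CPM in OEP1, 5.21, 4.07 and 3.81 CPM in pnet1, and 1.64, 1.54 and 1.53 CPM in WT. Its pnet1 libraries were all well above its OEP1 libraries, with log2 0.55 in OEP1 and 1.23 in pnet1. HSFA7A, a heat stress factor, had 3.63, 3.24 and 3.47 CPM in OEP1, 3.07, 4.25 and 3.2 CPM in pnet1, and 3.03, 2.01 and 1.32 CPM in WT. WT replicate 1 nearly reached the lines and the WT libraries spread widely. RAP2-6, an ERF factor induced by stress and ABA, had 1.0, 1.42 and 0.976 CPM in OEP1, 1.91, 2.54 and 2.1 CPM in pnet1, and 0.872, 0.592 and 0.792 CPM in WT. Its pnet1 libraries were well apart and its OEP1 libraries close to WT, at as few as 18 counts in a line library and 10 in a WT library.

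RAV2, also known as TEM2 and a repressor of flowering, had 21.3, 22 and 23.1 CPM in OEP1, 21, 22.3 and 18.7 CPM in pnet1, and 16.5, 12.9 and 17 CPM in WT. FBH4, a helix-loop-helix activator of the flowering gene CONSTANS, had 5.53, 5.8 and 6.77 CPM in OEP1, 5.96, 5.43 and 5.69 CPM in pnet1, and 3.9, 4.5 and 3.96 CPM in WT. Both had groups of similar height in OEP1 and pnet1. MYB86 averaged 3.37 ± 0.36 CPM in OEP1, 3.13 ± 0.161 CPM in pnet1 and 2.25 ± 0.336 CPM in WT, and AT5G01200, a homeodomain-like protein, averaged 9.07 ± 1.53 CPM in OEP1, 10.3 ± 0.651 CPM in pnet1 and 6.83 ± 0.475 CPM in WT.

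Other named genes were of mixed function. BGLU21, a beta-glucosidase of the PYK10 group stored in endoplasmic reticulum bodies, had the largest value for the smaller of its differences from WT. BGLU21 had 6.7, 7.63 and 5.47 CPM in OEP1, 10.2, 6.02 and 4.75 CPM in pnet1, and 2.26, 3.67 and 4.12 CPM in WT. The pnet1 libraries spread widely. Its transcript is 91.5% identical over 96.1% of its length to that of BGLU22, which averaged 169 ± 28.8 CPM in OEP1, 121 ± 29.5 CPM in pnet1 and 192 ± 51.2 CPM in WT. The value of the rarer copy is therefore uncertain. PER38, a class III peroxidase, had 7.81, 5.58 and 5.04 CPM in OEP1, 6.65, 7.67 and 7.56 CPM in pnet1, and 4.21, 3.91 and 4.33 CPM in WT, and it is 93.5% identical to PER37, which averaged 213 CPM in OEP1, 332 CPM in pnet1 and 204 CPM in WT. AT4G38290, related to hemolysin III, averaged 1.97 ± 0.232 CPM in OEP1, 2.08 ± 0.425 CPM in pnet1 and 1.01 ± 0.2 CPM in WT. This gene and the nucleolar RNA AT4G39366 also have near copies, and their values are uncertain likewise.

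PP2A1, a lectin of phloem sap, had 28.6, 22.8 and 25.7 CPM in OEP1, 24.2, 22.2 and 27.6 CPM in pnet1, and 21.6, 15.6 and 18.4 CPM in WT. The summed phloem list, given above, was higher in pnet1 alone, and its part in this value was not tested. EXLB1, an expansin-like protein, had 6.7, 4.61 and 5.47 CPM in OEP1, 3.88, 3.6 and 4.2 CPM in pnet1, and 3.18, 2.66 and 2.59 CPM in WT. OEP1 was the higher line for EXLB1, with groups apart. UBC17, a ubiquitin-conjugating enzyme, had 7.7, 5.69 and 6.45 CPM in OEP1, 9.72, 8.14 and 8.23 CPM in pnet1, and 4.87, 4.68 and 5.07 CPM in WT. AT4G39675, a protein of unknown function, had 12.1, 9.1 and 11.5 CPM in OEP1, 14.1, 18.8 and 13.6 CPM in pnet1, and 8.11, 8.35 and 8.76 CPM in WT. Among the most abundant per length were AT1G19530, at 70.4 ± 6.14 FPKM in OEP1, 83.1 ± 7.4 FPKM in pnet1 and 56 ± 4.35 FPKM in WT, and AT5G47060, at 53 ± 3.92 FPKM in OEP1, 54.4 ± 5.59 FPKM in pnet1 and 42.4 ± 1.39 FPKM in WT.

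The rest, picked here by their descriptions after the values had been seen, covered signalling, transport and metabolism. NIK2 and AT5G59700 are receptor-like kinases, and NIK2 averaged 36 ± 1.02 CPM in OEP1, 35.3 ± 2.31 CPM in pnet1 and 27.9 ± 2.55 CPM in WT. AHA7, a proton pump of the plasma membrane, averaged 6.86 ± 0.293 CPM in OEP1, 7.13 ± 0.0128 CPM in pnet1 and 5.02 ± 1.02 CPM in WT. AHL17, an AT-hook protein of the nucleus, averaged 23.3 ± 2.05 CPM in OEP1, 25.4 ± 1.6 CPM in pnet1 and 16.6 ± 2.23 CPM in WT. UGT75D1, a glycosyltransferase, averaged 20.4 ± 0.756 CPM in OEP1, 17.9 ± 1.86 CPM in pnet1 and 13.7 ± 1.89 CPM in WT. HTR11, a histone H3 variant, averaged 3.07 ± 0.553 CPM in OEP1, 2.54 ± 0.251 CPM in pnet1 and 1.85 ± 0.324 CPM in WT, and SPL6, a squamosa promoter-binding-like factor, averaged 7.06 ± 0.429 CPM in OEP1, 6.22 ± 0.369 CPM in pnet1 and 4.88 ± 0.819 CPM in WT. AT1G74456, a nucleolar RNA of 82 bases, averaged 2.07 ± 0.396 CPM in OEP1, 2.3 ± 0.173 CPM in pnet1 and 1.29 ± 0.242 CPM in WT, and AT2G15830 averaged 2.51 ± 0.261 CPM in OEP1, 1.98 ± 0.527 CPM in pnet1 and 1.09 ± 0.231 CPM in WT.

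A few enzymes and defence genes were among those with small differences. ASPGB1, an asparaginase, differed from WT by log2 0.33 in OEP1 and 0.43 in pnet1. OASA2, an isoform of the enzyme that makes cysteine, averaged 6.06 ± 0.838 CPM in OEP1, 5.76 ± 0.448 CPM in pnet1 and 4.41 ± 0.69 CPM in WT. NSP3, a nitrile-specifier protein of glucosinolate breakdown, averaged 1.94 ± 0.214 CPM in OEP1, 2.28 ± 0.354 CPM in pnet1 and 1.39 ± 0.132 CPM in WT, and its transcript is 90.5% identical to that of the far more abundant NSP1, so its value is uncertain too. RPPL1, described as a putative disease resistance protein, averaged 10.6 ± 0.277 CPM in OEP1, 11.1 ± 1.12 CPM in pnet1 and 8.15 ± 0.534 CPM in WT. DVL10, a member of the DEVIL family of small peptides, averaged 2.03 ± 0.511 CPM in OEP1, 1.75 ± 0.114 CPM in pnet1 and 1.27 ± 0.101 CPM in WT. CYP705A27, a cytochrome P450, averaged 5.73 ± 0.501 CPM in OEP1, 5.75 ± 0.693 CPM in pnet1 and 4.52 ± 0.222 CPM in WT, and NAC041, a NAC domain protein, averaged 9.93 ± 0.634 CPM in OEP1, 10.6 ± 0.74 CPM in pnet1 and 7.88 ± 0.812 CPM in WT. PCMP-E53, a pentatricopeptide repeat protein, averaged 4.94 ± 0.606 CPM in OEP1, 5.02 ± 0.595 CPM in pnet1 and 3.8 ± 0.367 CPM in WT. The receptor-like kinase AT4G29990 averaged 10.2 ± 1.08 CPM in OEP1, 10.4 ± 1.43 CPM in pnet1 and 8.0 ± 0.397 CPM in WT, and the F-box protein AT1G27420 averaged 7.45 ± 0.0472 CPM in OEP1, 7.76 ± 0.944 CPM in pnet1 and 5.84 ± 0.306 CPM in WT.

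Among the remaining loci without a symbol, AT4G24110 and AT3G59320 were the most abundant. AT4G24110 averaged 47.8 ± 3.03 CPM in OEP1, 43 ± 1.84 CPM in pnet1 and 32.3 ± 7.1 CPM in WT, with WT replicate 3 close to the lines, and AT3G59320 averaged 40.9 ± 4.9 CPM in OEP1, 43 ± 4.07 CPM in pnet1 and 32.6 ± 2.09 CPM in WT. AT1G29770, AT2G07662 and AT3G06435 reached smaller differences of 0.50, 0.48 and 0.45. AT2G16050, AT5G26720, AT3G04210, AT1G04973, AT2G18860, AT2G08435, AT5G38747 and AT4G37240 lay between 0.32 and 0.41.

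Of the 68 genes, 22 overlap another annotated gene, among them ORS1, EBF2, PER38, FBH4 and PP2A1 on the opposite strand. The libraries were strand-specific per the labels, but no source says whether the counting used strand, so reads of such partners may be included. The partner of ORS1, AT2G41231, and AT2G09350, 1 of 2 partners of FBH4, had no counts.

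Promoters were searched for 16 short motifs on both strands, from 250 bases before to 50 bases after the start, with one more added as said. The GCC-box, GCCGCC, the site of ERF factors, was in 8 of the 68 promoters (11.8%), against 2.63% of all promoters and 2.79% of those at the CPM floor. In the 250 bases before the start it was in 7 (10.3%), against 1.90% of all. The site II element, TGGGCC, typical of promoters of ribosomal protein and other housekeeping genes, was in 1 (1.47%), against 14.3% of all and 19.9% at the floor. The telo box, AAACCCT, was in 2.94% against 9.98% of all. W-box cores, TTGAC, were in 60.3% against 49.9%, and the TATA box, TATAAA, was in 51.5% against 50.6%.

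**Figure D4:**
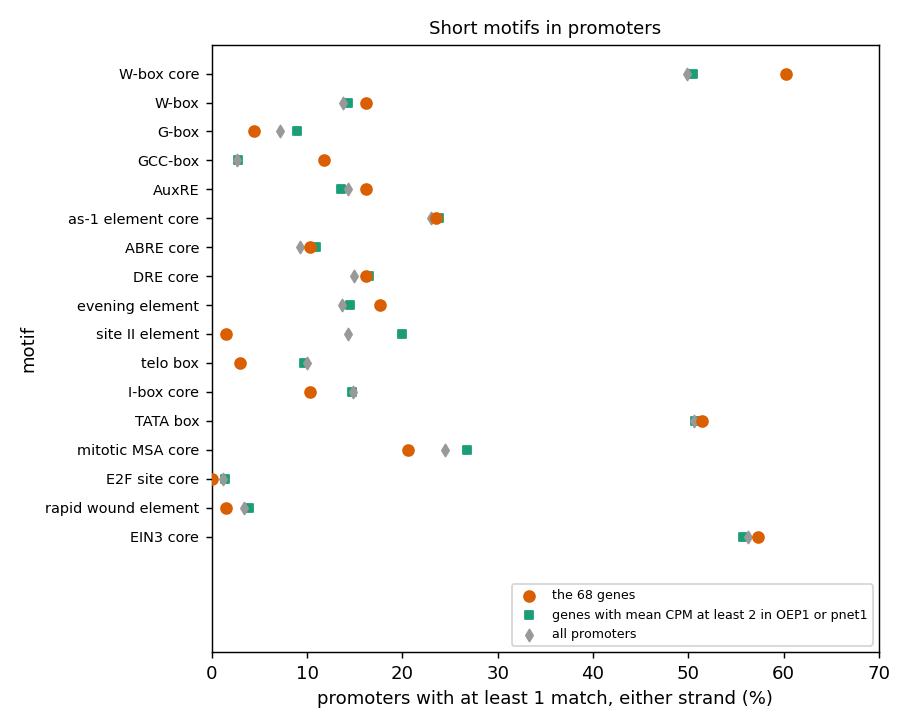
Share of promoters, in percent, with at least 1 match to each of 17 motifs, for the 68 genes, for genes with a mean CPM of at least 2 in OEP1 or pnet1, and for all promoters. The GCC-box point of the 68 genes lies right of the others and the site II and telo box points lie left of them.

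The 4 promoter stretches shown here carry a GCC-box in the 250 bases before the start and are shown because this motif was more frequent among the 68 than among all promoters, with the match in capitals. They are PER38 at chr4:5603855-5604104, PUP22, a purine permease, at chr4:10073461-10073710, UBC29, a ubiquitin-conjugating enzyme, at chr2:7267472-7267721 and AT4G39675 at chr4:18413525-18413774, all on the plus strand of TAIR10.1.
PER38: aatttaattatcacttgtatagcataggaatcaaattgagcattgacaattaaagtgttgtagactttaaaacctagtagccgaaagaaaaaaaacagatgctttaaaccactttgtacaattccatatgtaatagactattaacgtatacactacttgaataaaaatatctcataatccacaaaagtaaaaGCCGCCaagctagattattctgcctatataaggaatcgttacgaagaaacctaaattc
PUP22: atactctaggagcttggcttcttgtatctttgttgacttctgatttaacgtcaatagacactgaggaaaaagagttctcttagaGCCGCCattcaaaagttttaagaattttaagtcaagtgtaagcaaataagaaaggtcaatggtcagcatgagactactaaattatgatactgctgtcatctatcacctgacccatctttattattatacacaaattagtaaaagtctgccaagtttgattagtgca
UBC29: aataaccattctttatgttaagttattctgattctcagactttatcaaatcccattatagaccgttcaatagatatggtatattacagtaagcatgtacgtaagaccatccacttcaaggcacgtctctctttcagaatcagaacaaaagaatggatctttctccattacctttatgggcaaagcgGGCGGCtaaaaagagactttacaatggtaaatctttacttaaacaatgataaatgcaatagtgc
AT4G39675: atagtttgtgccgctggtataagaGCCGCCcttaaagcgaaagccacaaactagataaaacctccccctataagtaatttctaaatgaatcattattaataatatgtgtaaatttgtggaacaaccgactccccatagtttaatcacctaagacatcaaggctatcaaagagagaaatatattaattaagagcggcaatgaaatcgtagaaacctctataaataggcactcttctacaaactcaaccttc
In UBC29 the match is on the opposite strand and reads GGCGGC. These matches are descriptions of sequence and say nothing of binding. PUP22 averaged 6.15 ± 0.499 CPM in OEP1, 5.99 ± 0.562 CPM in pnet1 and 4.44 ± 0.129 CPM in WT, and UBC29 averaged 5.36 ± 0.156 CPM in OEP1, 6.8 ± 1.14 CPM in pnet1 and 4.22 ± 1.02 CPM in WT.

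OEP1 and pnet1 were then compared with each other, which the rule did not do, in the edgeR fit over 19698 genes. Of the 68 genes, 12 were called lower and 1 higher in OEP1 than in pnet1 at an adjusted p under 0.05, and 14 had an unadjusted p under 0.05. Both lines passed the CPM floor for 62 of the 68, of which 11 were called lower and 1 higher. The floor was passed in pnet1 alone by 4 genes (RAP2-6, AT4G38290, NSP3 and ASPGB1) and in OEP1 alone by 2 (AT2G15830 and DVL10). Over all genes tested 43.5% were called, 23% higher and 20.6% lower. The rule keeps both lines on the same side of WT and so limits how far apart they lie, and nothing is read from the lower share among the 68. The median fold change of the 68 was -0.05 on the log2 scale, and -0.02 over all genes tested. OEP1 and pnet1 libraries did not overlap for 16 of the 68, with OEP1 higher for 4 and lower for 12. Among genes at the floor they did not overlap, with OEP1 higher, for 26.4%, and with OEP1 lower for 29.1%.

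The genes called lower in OEP1 included several of those above. ARL differed by -0.66 ± 0.11 (SE, adjusted p = 0.000637 by edgeR), CLV3 by -0.65 ± 0.16 (SE, adjusted p = 0.0033 by edgeR) and CYP707A3 by -0.44 ± 0.13 (SE, adjusted p = 0.0083 by edgeR). AT1G63820 changed by -0.77 ± 0.18 (SE, adjusted p = 0.00223 by edgeR). AT4G39675 changed by -0.50 ± 0.13 (SE, adjusted p = 0.00425 by edgeR). Each of these 5 kept its call in every alternative, including each fit without 1 library. RAP2-6 was also called, with a log2 fold change of -0.93, but it entered the 68 through pnet1 alone, with 2.18 CPM there against 1.13 CPM in OEP1, so that its difference between the lines is tied to how it was chosen and is a description. AT5G35732, UBC17, MLO10, PYL6, IAA28 and AT1G19530 were also called lower, MLO10 and PYL6 being named after their values were seen, with changes of -0.41 to -0.24, and each lost the call when some 1 library was left out. EXLB1 was the one called higher, with 0.53 ± 0.17 (SE, adjusted p = 0.0154 by edgeR), and lost the call without OEP1 replicate 1 (adjusted p = 0.084) and without pnet1 replicate 2 (adjusted p = 0.060), both by edgeR.

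A gene that was not called is not shown to be alike in the 2 lines. EBF1 changed by -0.05 ± 0.05 (SE, adjusted p = 0.455 by edgeR), and PYL4 by -0.09 ± 0.11 (SE, adjusted p = 0.568 by edgeR). EBF2 changed by 0.24 ± 0.12 (SE, adjusted p = 0.17 by edgeR) and was called when only the OEP1 and pnet1 libraries entered the fit (adjusted p = 0.0027 by edgeR), without WT replicate 1 (adjusted p = 0.0232) and without WT replicate 3 (adjusted p = 0.00982). ERF1B changed by -0.25 ± 0.15 (SE, adjusted p = 0.212 by edgeR), and was called without OEP1 replicate 1 (adjusted p = 0.00135 by edgeR) and with the replicate block (adjusted p = 0.0433). ORS1 changed by 0.25 ± 0.13 (SE, adjusted p = 0.116 by edgeR) and was called without OEP1 replicate 3 (adjusted p = 0.0346 by edgeR).

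**Figure D5:**
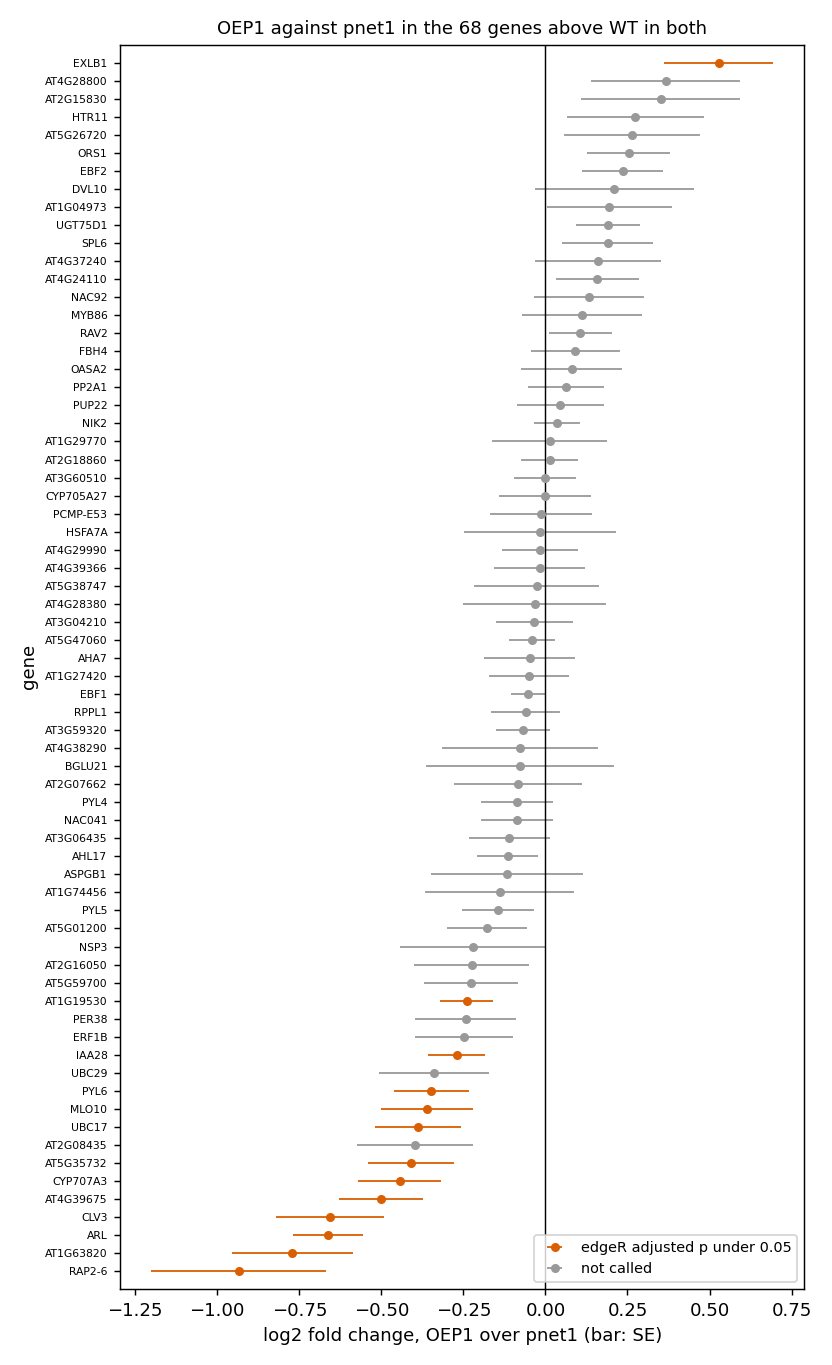
Log2 fold change of OEP1 over pnet1 with its standard error for each of the 68 genes, ordered from the most positive at the top. The 13 called genes are coloured, 12 of them left of 0, and RAP2-6, at -0.93, was chosen through its level in pnet1 alone.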

How the data were processed

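Messenger RNA of 9 callus libraries was measured by strand-specific RNA-seq. The deposited table holds raw counts per gene, and a second deposited table holds FPKM values that the authors derived from the same counts. The submitters' processing notes name HISAT2 2.0.4, HTSeq 0.6.1p1 and the TAIR10 build. Positions of all 68 genes were the same in the TAIR10.1 annotation used for sequences.

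CPM used column totals, a pseudocount of 0.5 and a floor of 2. Counts were tested with edgeR 4.0.16 in R 4.3.3 (filterByExpr with minimum count 10 and minimum total 15, TMM factors, robust quasi-likelihood fit of all 9 libraries, Benjamini-Hochberg adjustment over 19698 genes, threshold 0.05), and the steps were tested on simulated data. The comparisons of each line with WT chose the genes and are given for them without a test. The lines share their WT libraries. No source says that replicates came from separate cultures, so p-values measure only the spread between these libraries, which may be technical. No pair of replicates agreed within counting noise (chi-square per degree of freedom 2.46 to 7.36).

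The genes and lists were chosen with earlier results of these data known. Named were the 14 genes with the largest smaller difference, the 6 highest by FPKM, up to 8 called per direction between the lines, up to 4 per list, up to 10 transcription factors and the 3 genes on each side of the threshold. The family column of the deposited table marks 16439 genes and was used only together with the description. The counts of genes at the floor in each line, and of ethylene genes outside the 68, were added after the data were seen. Near copies were judged by transcript identity of at least 90% over 30% of the length (blastn 2.17.0), in place of the protein identity that had been planned. Only transcripts of the 5 nuclear chromosomes were searched, so copies of any of the 68 in the organelle genomes were not looked for. Of 1204 list entries, 1143 matched a gene, after 6 wrong matches by symbol were removed. Alternatives were other scalings, pseudocounts, floors and thresholds, FPKM, DESeq2 1.42.0, a replicate block, the 6 line libraries alone and leaving out each library.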

Additional observations from a re-analysis of the deposited data

Results flagged for a closer look

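For 13 genes the OEP1 libraries differed from the pnet1 libraries, by the edgeR test of OEP1 over pnet1 in the same fit (adjusted p under 0.05 for each). The log2 fold change was -0.93 for RAP2-6, -0.77 for AT1G63820, -0.66 for ARL, -0.65 for CLV3, -0.50 for AT4G39675 and -0.44 for CYP707A3. It was -0.41 for AT5G35732, -0.39 for UBC17, -0.36 for MLO10, -0.35 for PYL6, -0.27 for IAA28 and -0.24 for AT1G19530, and 0.53 for EXLB1. That both lines lay above WT in all 13 was required by the rule. Over all 19698 genes tested, 43.5% were called in this comparison, 23% higher and 20.6% lower in OEP1, so a call alone does not set these 13 apart. The rule limits how far apart the lines lie, and nothing is read from the smaller share called among the chosen genes. RAP2-6 met the CPM floor through pnet1 alone, so its difference is tied to how it was chosen, and its OEP1 libraries held few reads, with a mean of 1.13 CPM. MLO10 is the least firm, since its adjusted p reached 0.161 without pnet1 replicate 1 and 0.0739 with DESeq2. AT5G35732, UBC17, PYL6, IAA28, AT1G19530 and EXLB1 also lost the call when some 1 library was left out.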

How the results depend on the processing

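The set depends on its settings. A log2 threshold of 0.5 left 14 genes, and leaving out 1 library gave 63 to 161. TMM factors gave 56 (and 41 genes lower in both lines, against 32), RLE factors 63 and FPKM 65, and 28 of the 68 were kept under these scalings and every left-out library. Without 1 library, members called between the lines numbered 0 to 2 higher and 7 to 13 lower in OEP1, and genes called in OEP1 over WT ran from 737 to 3125. With the 6 line libraries alone, 3 members were higher in OEP1. Replicate numbers are shared between groups, but same-numbered libraries did not deviate together (correlations of -0.18 to 0.08). With the replicate block, 13 members were lower and 1 higher in OEP1 than in pnet1, against 12 and 1 without it, with 1726 genes called in OEP1 over WT, against 2208. Of 629 fold changes of named genes under alternatives, 595 stayed on their side of the threshold, 26 lost the call (7 genes), 8 gained it (5 genes) and none reversed a called direction, while 24 values of 9 genes, none of them called, changed sign. The causes were not tested. Most of these genes lie under 10 CPM. Genes lost when some 1 library was left out were found there and at higher levels, as AT1G19530 and AT5G47060. Others under 10 CPM, as CLV3 and NAC92, were kept.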

Other observations

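The promoters with a GCC-box in the 250 bases before the start belonged to AT1G04973, AT4G39366, AT4G39675, PER38, PP2A1, PUP22 and UBC29. None of these genes is on the ethylene list, and whether any factor acts on these promoters was not tested.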
